A study of Mus musculus with 8 samples.

Results

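A set of 10 genes that sense, bind or break down retinoic acid, or that answer to hedgehog signalling, was followed through RNA captured with probes against Lhx1os, a long noncoding RNA of motor neurons. The genes were listed by name and matched by Ensembl identifier, and all 10 were present among the 55471 gene identifiers of the deposited tables. The retinoic acid genes were the nuclear receptors Rara, Rarb and Rarg, the degrading enzymes Cyp26a1 and Cyp26b1, and the binding proteins Crabp1 and Crabp2. The hedgehog genes were Ptch1, Gli1 and Hhip.

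RNA-seq was performed on 8 libraries of motor neurons differentiated from HBG3 mouse embryonic stem cells, which carry green fluorescent protein under the HB9 promoter, a motor neuron promoter (HB9::GFP). After dissociation the cells were kept for 3 days in N2B27 medium with BDNF at 20 ng/mL, and GDNF and CNTF at 10 ng/mL each, and all 4 groups shared this line and culture. Input was RNA without capture, ODD and EVEN were captures with biotinylated antisense probes of 20 nt from separate sets against all Lhx1os isoforms, and LacZ was a capture with control probes against the LacZ mRNA. Each group had 1 library from each of 2 independent experiments, labelled replicate 1 and replicate 2. The libraries are treated here as whole cultures: no label names a sort for fluorescent cells, so other cells of the culture may have contributed RNA. In such bulk samples fewer cells of a type and less RNA per cell cannot be told apart.

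Total counts were 24628435 and 20515501 in Input and between 7632775 and 12563449 in the 6 pull-downs, so genes of a few counts were measured less precisely in the pull-downs. Lhx1os itself had 16 to 61 counts per library in Input and LacZ, and 283 to 2239 in ODD and EVEN. Its recovery was larger in replicate 1 than in replicate 2 for both probe sets. All 8 motor neuron markers examined were detected in every library. Their summed level was 221 to 258 CPM (counts scaled to the library total with TMM factors) in replicate 1 and 601 to 667 in replicate 2. Prph held much of that difference, at 44.5 to 59.1 CPM in replicate 1 and 271 to 319 in replicate 2. The markers did not rise alike: Mnx1 was 48.3 and 69.0 CPM in Input. In the pull-downs Mnx1 was 56.9 to 57.1 CPM in replicate 1 and 52.7 to 53.6 in replicate 2.

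Retinoic acid is made from vitamin A and acts as a ligand of the retinoic acid receptors, which bind DNA together with retinoid X receptors at paired hexamers called retinoic acid response elements. Crabp1 and Crabp2 carry the ligand in the cytoplasm, and Cyp26 enzymes oxidise it. Hedgehog ligands bind the receptor Ptch1, which relieves Smo from inhibition and lets Gli factors act, and Ptch1, Gli1 and Hhip are well known targets of that signal. In the ventral spinal cord retinoic acid helps set spinal identity, and the ligand Shh from notochord and floor plate patterns the progenitors from which motor neurons arise.

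RefSeq promoter windows of GRCm38.p6, from 250 bases before to 50 after a gene's start, were matched by symbol for 8 of the 10 genes (12 windows). There was no entry for Crabp2 and Gli1. The windows were searched on both strands for pairs of the hexamer AGGTCA, its variant AGTTCA, the hexamer GGGTCA or its variant GGTTCA, in the same orientation, with 1, 2 or 5 bases between them. A pair spaced by 5 bases was found in Rarb and Cyp26a1, and it occurred in 32 of 32851 promoters (0.0974%). The matches are shown because the level of Rarb differed between the experiments in every group, whereas Cyp26a1, with the same kind of match, had few counts. Any link between the matches and these levels was not tested. Both sequences are given 5′ to 3′ in the direction of the gene, with the match and its spacer in capitals.
Rarb: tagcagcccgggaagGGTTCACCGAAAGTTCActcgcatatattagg
Cyp26a1: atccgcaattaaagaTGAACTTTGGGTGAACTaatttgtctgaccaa
The Rarb stretch lies on the minus strand at chr14:16575498-16575544 and its match runs from -53 to -37 relative to the start. The Cyp26a1 stretch lies on the plus strand at chr19:37697761-37697807, with the match on the other strand, from -32 to -16. Pairs spaced by 1 or 2 bases were found in 0 of the 8 genes, beside 0.222% and 0.268% of all promoters. At least 1 single hexamer was present in 4 of the 8 genes, beside 43.7% of all promoters. A gene was counted if any of its windows matched (Rara had 4 windows), whereas the shares are per promoter window, so the units differ. The Gli site GACCACCCA was found in none of the windows of these 8 genes, Ptch1 and Hhip included, and in 0.253% of all promoters; these letters alone say nothing of Gli binding elsewhere.

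Levels between genes were compared in FPKM, counts scaled to gene length and library total. In Input the order by mean level (± SD, n = 2) was Ptch1 at 37.7 ± 21.6 FPKM, Rara at 29.3 ± 0.597, Crabp1 at 25.8 ± 4.15, Crabp2 at 10.5 ± 11.1 and Rarb at 7.55 ± 2.97. Rarg followed at 1.87 ± 0.134 FPKM, Hhip at 1.38 ± 0.574, Gli1 at 1.35 ± 0.064 and Cyp26b1 at 0.588 ± 0.328, and Cyp26a1 was lowest. The 2 Ptch1 libraries spanned those of Rara and Crabp1, so the order of these genes was not resolved. The Crabp2 libraries likewise spanned those of Rarb, and the Hhip libraries those of Gli1. Rarg was above Hhip in both replicates, although their ranges overlapped. Cyp26b1 was below Hhip and Gli1 in both Input libraries. Across all 8 libraries Rarg, Hhip, Gli1 and the Cyp26 genes stayed at or below 2.07 FPKM and the other members at or above 2.70, as the plot of levels by library shows.

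**Figure D1:**
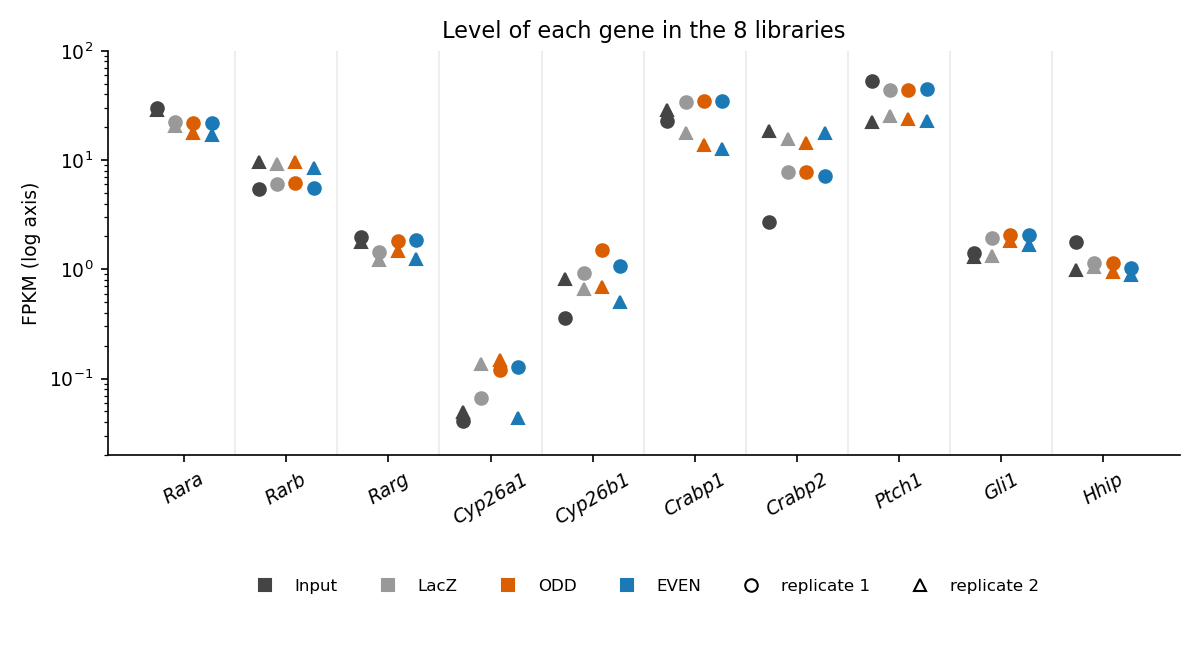
Level of each of the 10 genes in the 8 libraries, in FPKM on a log axis; colour gives the group, and the marker shape gives the replicate. Rara was highest in the 2 Input libraries (29.7 and 28.9 FPKM), and Rarb, Crabp2 and Ptch1 split by replicate in every group.

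Among the receptors, Rara was the most abundant. Rara, on chromosome 11 from 98927818 to 98974942 (plus strand; GRCm38), is the broadly expressed receptor of the family. Its level was 29.7 and 28.9 FPKM in Input (replicates 1 and 2), 22.1 and 20.3 with LacZ probes, 21.7 and 17.6 with ODD, and 21.9 and 17.0 with EVEN. Both Input libraries were above all 6 pull-down libraries, and the LacZ control was as low as ODD and EVEN in replicate 1. Within each experiment the ratio of a pull-down to its own Input was 0.604 to 0.732 in CPM.

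Rarb, on chromosome 14 from 16430839 to 16819156 (minus strand), is itself a classical target of retinoic acid. Its level was 5.45 and 9.65 FPKM in Input, 6.05 and 9.15 with LacZ probes, 6.11 and 9.56 with ODD, and 5.55 and 8.41 with EVEN. Replicate 2 was higher than replicate 1 in each of the 4 groups, and the replicates did not overlap. The exons of Rarb share 1793 bases, 34.1% of their length, with Top2b, a gene of far higher count on the opposite strand. A strand setting for counting is not given in the sources, so part of the Rarb count is uncertain. Top2b differed by 0.01 (SE 0.092) on the log2 scale between replicates, where Rarb differed by 0.66. Whether reads over the shared bases were counted for Rarb, for Top2b or for neither was not tested.

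Rarg, on chromosome 15 from 102234938 to 102257517 (minus strand), is the third receptor. Its level was 1.96 and 1.77 FPKM in Input, 1.45 and 1.22 with LacZ probes, 1.81 and 1.48 with ODD, and 1.85 and 1.24 with EVEN. Replicate 2 was the lower of the pair in every group. Both LacZ libraries lay below both Input libraries and below both ODD libraries, and EVEN overlapped every other group.

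Of the degrading enzymes, Cyp26a1 (chromosome 19, 37697798 to 37701536, plus strand) was barely detected. It had 2 and 2 counts in Input, 1 and 3 with LacZ probes, 3 and 3 with ODD, and 3 and 1 with EVEN, 18 counts in all, and it did not pass the filter on low counts. No comparison of Cyp26a1 was possible at this depth. Cyp26b1 (chromosome 6, 84571414 to 84593908, minus strand) had 0.357 and 0.820 FPKM in Input, 0.930 and 0.654 with LacZ probes, 1.52 and 0.691 with ODD, and 1.08 and 0.502 with EVEN. In Input replicate 2 was the higher library, whereas in each of the pull-down groups it was the lower one. These levels rest on 31 to 102 counts per library.

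The binding proteins differed in their pattern over the libraries. Crabp1 (chromosome 9, 54764748 to 54773110, plus strand) had 22.9 and 28.75 FPKM in Input, 33.65 and 17.8 with LacZ probes, 34.6 and 13.6 with ODD, and 34.45 and 12.5 with EVEN. The pull-downs of replicate 1 were the highest libraries and those of replicate 2 the lowest, with both Input libraries between them. Crabp2 (chromosome 3, 87948666 to 87953376, plus strand) had 2.70 and 18.3 FPKM in Input, 7.83 and 15.5 with LacZ probes, 7.71 and 14.4 with ODD, and 7.18 and 17.6 with EVEN. Replicate 2 was higher in every group, and the Input libraries were the lowest and the highest of the 8.

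The hedgehog receptor Ptch1 (chromosome 13, 63508328 to 63573598, minus strand) had 52.95 and 22.4 FPKM in Input, 43.3 and 25.25 with LacZ probes, 44.1 and 23.8 with ODD, and 44.35 and 22.8 with EVEN. Every library of replicate 1 was above every library of replicate 2. Gli1 (chromosome 10, 127329882 to 127341974, minus strand), a transcription factor that amplifies the signal, had 1.40 and 1.31 FPKM in Input, 1.94 and 1.33 with LacZ probes, 2.07 and 1.83 with ODD, and 2.07 and 1.68 with EVEN. The ODD and EVEN libraries lay above both Input libraries, and LacZ had 1 library above them and 1 between them. Hhip (chromosome 8, 79965851 to 80058006, minus strand), a membrane protein that binds hedgehog ligands away from their receptor, had 1.79 and 0.978 FPKM in Input, 1.14 and 1.06 with LacZ probes, 1.15 and 0.954 with ODD, and 1.03 and 0.878 with EVEN. Input of replicate 1 stood above the other 7 libraries, which lay close together.

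Each capture was set against Input to ask which RNAs came down with Lhx1os. None of the 9 genes tested passed in any capture at an adjusted p of 0.05, with edgeR's quasi-likelihood test on counts and Benjamini-Hochberg adjustment over all 16524 genes tested. Of all genes, edgeR called 6.84% with ODD, 5.66% with EVEN, 7.41% with LacZ probes and 10.2% with the 6 pull-downs as 1 group. Rara was the 1 member with an unadjusted p under 0.05 in each of these comparisons. Over all pull-downs Rara differed from Input by -0.56 on the log2 scale (SE 0.148, adjusted p = 0.0612 with edgeR), a level 68.0% of Input. With the replicate as a block, which pairs libraries of 1 experiment, Rara passed as lower in all pull-downs (adjusted p = 0.00427 with edgeR), beside 29.2% of all genes called and 13.1% called lower. The block fit also called Rara in LacZ (adjusted p = 0.0226 with edgeR), ODD (0.0133) and EVEN (0.0154), so its lower level appeared with the control probes as with the Lhx1os probes. Of all genes, 19.7%, 19.2% and 19.3% were called in these 3 block comparisons, and 7%, 6.55% and 6.41% were called lower. DESeq2 gave an adjusted p of 0.0231 for Rara over all pull-downs, and called 0 members in each capture alone.

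The other differences from Input were less than 2 standard errors. Gli1 differed by 0.41 (SE 0.221, adjusted p = 0.32 with edgeR), Hhip by -0.44 (SE 0.256, 0.364), Cyp26b1 by 0.59 (SE 0.490, 0.541) and Rarg by -0.33 (SE 0.223, 0.44). Rarb, Crabp1, Crabp2 and Ptch1 lay between -0.17 and 0.16, with errors of 0.308 to 0.705. The median difference of the 9 genes was -0.09, beside -0.02 over all genes tested. The sign of Rarb, Crabp1, Crabp2, Ptch1 and Hhip depended on which libraries were included: without Input replicate 2, Crabp2 differed by 2.09. Leaving out 1 library at a time moved Cyp26b1 between 0.11 and 1.29, with the sign kept.

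**Figure D2:**
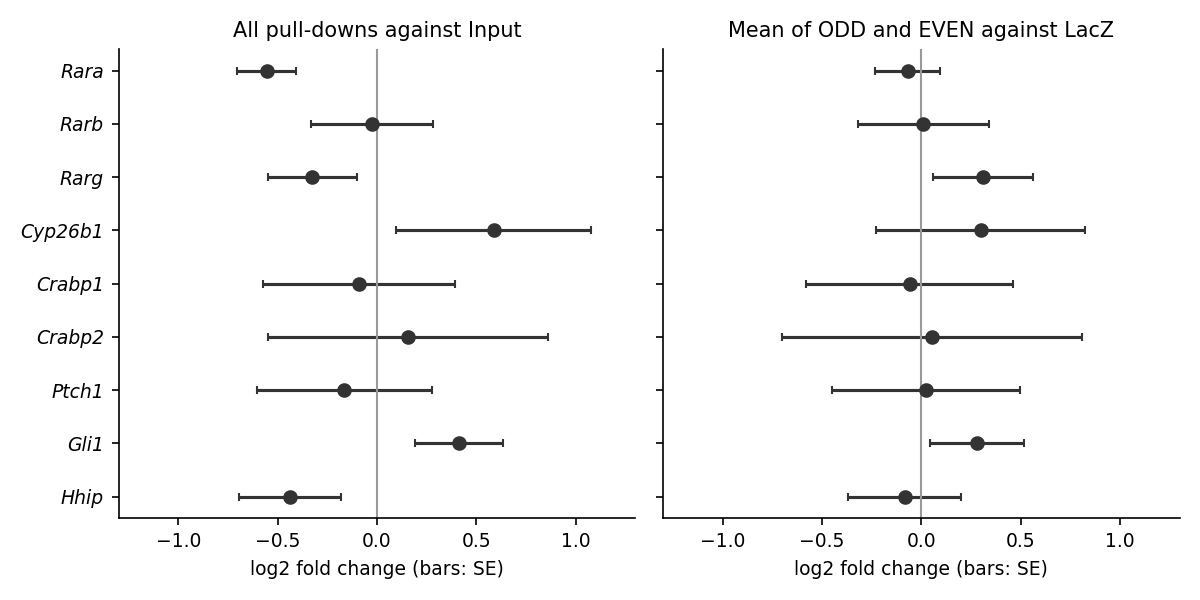
Log2 fold change of each of the 9 tested genes in all pull-downs against Input (left) and in the averaged ODD and EVEN captures against LacZ (right); points are edgeR estimates and bars are 1 standard error. Rara lies at -0.56 on the left and at -0.07 on the right, and on the right all bars except those of Rarg and Gli1 cross 0.

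Against LacZ, which controls for RNA that any capture carries down, the 9 genes did not separate. None passed with ODD, with EVEN or with the average of the Lhx1os probe sets, nor between ODD and EVEN, and edgeR called 0 of the 16524 genes (0%) in each of these comparisons. At an unadjusted p under 0.05 there were 0 members and 170, 283, 218 and 128 genes, in that order. DESeq2 and limma also called 0 members. The largest differences of the averaged Lhx1os captures from LacZ were 0.31 for Rarg (SE 0.252), 0.30 for Cyp26b1 (SE 0.525) and 0.28 for Gli1 (SE 0.236), and Rara differed by -0.07 (SE 0.162). For comparison, Lhx1os differed by 5.42 (SE 1.10) in the same fit. It did not pass the adjusted threshold either, so this comparison missed even the captured target. Leaving out 1 library at a time moved Gli1 between 0.02 and 0.58 and Rarg between 0.17 and 0.45. With errors of 0.162 to 0.753, small changes of these genes were not detectable, and a missed threshold does not show equal levels.

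The transcripts were also searched for stretches complementary to Lhx1os, in the GENCODE M21 transcripts of GRCm38. The longest complementary run was 14 nt in Ptch1 and 9 nt in Crabp1, with the other members between, beside a median of 11 and a maximum of 32 over 16507 genes. Runs as long as that of Ptch1 were found in 12.6% of genes and runs as long as the 12 nt of Rara in 37.5%, so runs of these lengths were common. The Ptch1 run, at positions 4001 to 4014 of transcript Ptch1-206 (10383 nt), lies in the 3′ UTR, and the Rara run, at positions 91 to 102 of Rara-203 (2380 nt), lies in the 5′ UTR. They are printed as the longest run of the set and that of the gene lowest against Input, with the bases complementary to Lhx1os in capitals.
Ptch1: gcacttggGAGGCAGAGGCAGGcgcatttc
Rara: acacctgagCAGCACCACAGGacatgcctc
Runs shared with Lhx1os in the same sense, which a probe could catch directly, were 10 to 14 nt long. The longest of these, in Cyp26b1, was matched or exceeded in 14.2% of genes.

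The members were also compared between the experiments. In a fit with group and replicate, Rarb and Crabp2 were higher and Ptch1 was lower in replicate 2 than in replicate 1, 3 of 9 members, beside 27.4% of all genes called (15% higher, 12.4% lower). Libraries of 1 experiment share their cells, so the p-values measure the spread between libraries and not between independent cultures. Rarb was 1.58-fold higher in replicate 2 (log2 0.66, SE 0.085, adjusted p = 0.00177 with edgeR), with ratios of 1.49 to 1.74 in the 4 groups. Crabp2 was 2.79-fold higher (log2 1.48, SE 0.298, adjusted p = 0.0106 with edgeR), with a ratio of 6.68 in Input and 1.83 to 2.53 in the pull-downs. Ptch1 fell to 50.8% of its replicate 1 level (log2 -0.98, SE 0.105, adjusted p = 0.000886 with edgeR), and every group agreed in direction. Rarb and Crabp2 thus differed in the direction opposite to Ptch1, whereas Rara, Rarg, Cyp26b1 and Crabp1 had estimates with the sign of Ptch1.

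The other members had negative estimates that did not pass. They were -0.82 for Crabp1 (SE 0.283, adjusted p = 0.0676 with edgeR), -0.41 for Hhip (SE 0.160, 0.0989), -0.36 for Cyp26b1 (SE 0.386, 0.515), -0.31 for Rarg (SE 0.133, 0.119), -0.28 for Gli1 (SE 0.129, 0.151) and -0.21 for Rara (SE 0.084, 0.101). The median over the 9 genes was -0.31, beside 0.01 over all genes tested. Leaving out Input replicate 1 or Input replicate 2 raised the count from 3 to 6 in each case, with 2 genes higher and 4 lower, while the share of all genes called rose from 27.4% to 40.3% and 40.4%. With either Input library left out, the replicate term rests on the 6 pull-downs alone, so these fits and the next are not separate checks. A fit of the 6 pull-downs alone, added after the data were seen, called 6, beside 40.6% of all genes (19% higher, 21.6% lower). In that fit Rara (-0.28), Cyp26b1 (-0.96) and Crabp1 (-1.26) were lower beside Ptch1 (-0.90), and Rarb (0.60) and Crabp2 (1.05) were higher.

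Markers of the cell types that the cultures could hold differed between the experiments as well. In the fit of group and replicate over all 8 libraries, 15% of all genes were called higher in replicate 2 and 12.4% lower. Of the motor neuron markers 6 of 8 were higher in replicate 2. Oligodendrocyte lineage markers were lower in 4 of 4, with a summed level of 421 to 643 CPM in replicate 1 and 68.5 to 82.9 in replicate 2. Ventral progenitor markers were lower in 4 of 6, at 1400 to 1881 CPM against 1064 to 1370, and floor plate markers, with Shh among them, were higher in 4 of 4, at 153 to 217 against 298 to 426. Of the 4 astrocyte markers 2, Slc1a3 and Aldh1l1, were tested and 1 was lower (249 to 447 CPM against 188 to 205 for the sum). Nearly all of that sum was Slc1a3 and Aldh1l1, as Gfap had at most 15 counts per library and Aqp4 at most 16. Of 5 mesenchymal markers 1 was higher and 1 lower (115 to 218 CPM against 106.5 to 178). Of 4 pluripotency markers 1, Esrrb, was tested and was higher. It made up nearly all of their summed level (2.71 to 5.29 CPM against 7.79 to 12.6). Nanog had at most 10 counts per library and differed the other way in Input (10 and 2 counts). Zfp42 had at most 3 counts, and Pou5f1 was at 0 in every library. The part of these differences in the levels of the retinoic acid and hedgehog genes was not tested.

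The pull-downs and the Input did not show the same difference between experiments for every gene. A model with an interaction of capture and replicate, added after the data were seen, called 3 members, all lower, beside 6.86% of all genes called and 4.75% called lower. The pull-down to Input ratio was lower in replicate 2 than in replicate 1 by 2.14 on the log2 scale for Cyp26b1 (-2.14, SE 0.437, adjusted p = 0.0273 with edgeR). It differed by -1.54 for Crabp1 (SE 0.216, adjusted p = 0.00669 with edgeR) and by -1.67 for Crabp2 (SE 0.236, adjusted p = 0.00696 with edgeR). Hhip (0.69, adjusted p = 0.0782 with edgeR) and Ptch1 (0.39, adjusted p = 0.0896 with edgeR) had estimates in the other direction that did not pass. Each experiment has 1 Input library, which was assumed to vary like the pull-downs, so an unusual Input library and a capture that differed between experiments cannot be told apart.

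The same model gives the difference of the 3 captures from the single Input library of each experiment, so these values describe those libraries. Within replicate 1 the captures were above that Input for Cyp26b1 (log2 1.72), Crabp2 (1.46) and Crabp1 (0.56), and below it for Hhip (-0.72), Rara (-0.46) and Ptch1 (-0.29), beside 32.7% of all genes called (17.7% higher, 15% lower). Within replicate 2 Crabp1 (-0.98) and Rara (-0.66) were lower, beside 36.7% of all genes called and 19.2% called lower. Rara was thus below the Input library of both experiments, and Crabp1 was above one and below the other. In the plot of differences between experiments, the Input point of Cyp26b1, Crabp1 and Crabp2 lies well above the points of the 3 captures. The Input points of Rara, Rarb, Rarg and Gli1 also lie above their captures, by smaller distances.

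**Figure D3:**
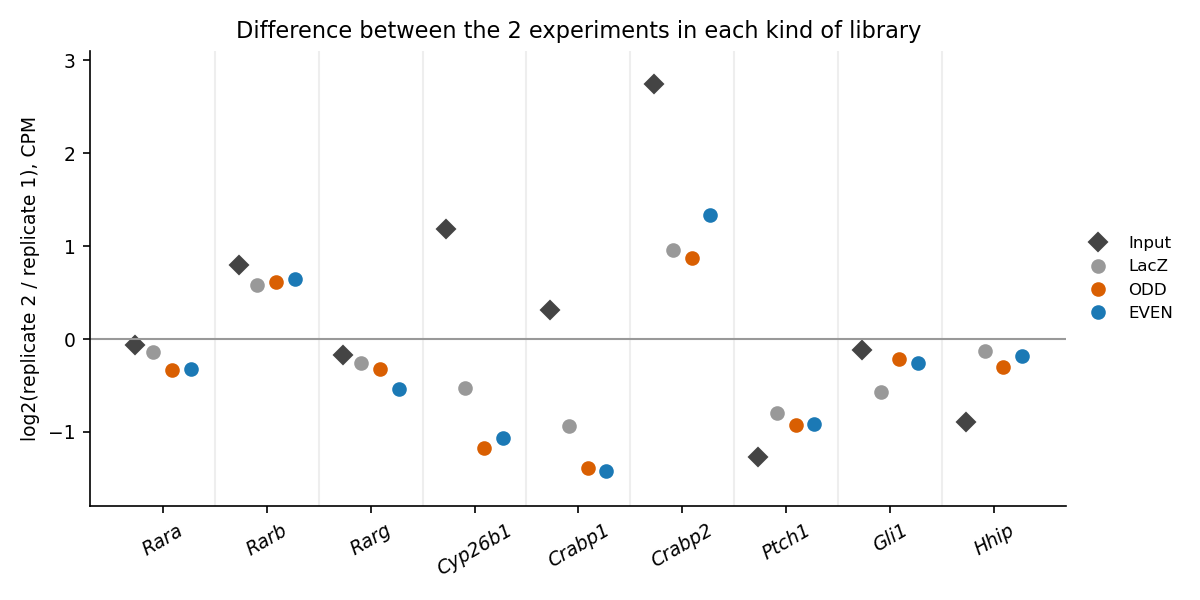
Log2 ratio of replicate 2 to replicate 1 in CPM for each of the 9 tested genes, 1 point per kind of library (diamond, Input; circles, the 3 captures). The Input points of Cyp26b1, Crabp1 and Crabp2 (1.18, 0.31 and 2.74) lie above their capture points. Those of Rara, Rarb, Rarg and Gli1 also lie above, by smaller distances, whereas those of Hhip and Ptch1 (-0.90 and -1.26) lie below.

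The rest of the retinoic acid pathway was taken as a list of 20 genes for supply, transport, synthesis, partner receptors and cofactors, of which 17 were tested. Among the most abundant in Input were the corepressor Ncor1 (46.7 ± 3.67 FPKM, SD, n = 2) and the lipid carrier Fabp5 (21.9 ± 7.69). Cyp26c1, the remaining Cyp26 enzyme, had 0 counts in every library. None of the 17 passed in any capture against Input or against LacZ with edgeR, and DESeq2 and limma also called 0. Over all pull-downs against Input 0 had an unadjusted p under 0.05, and the median was -0.09. With the replicate as a block, Dhrs3 (-0.44, adjusted p = 0.0424 with edgeR) and Rxra (-0.30, adjusted p = 0.0356 with edgeR) passed as lower, 2 of 17 beside 13.1% of all genes.

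Between the experiments 4 of the 17 were higher and 1 was lower in replicate 2, beside 15% and 12.4% of all genes, and the median was 0.07. Rbp4, the retinol carrier of plasma, was higher by 1.63 on the log2 scale (SE 0.301, adjusted p = 0.00768 with edgeR), on 7 to 85 counts per library. Dhrs3, which returns retinaldehyde to retinol and is known to be induced by retinoic acid, was higher by 1.47 (SE 0.125, adjusted p = 0.000334 with edgeR). It had 2.84 and 8.31 FPKM in Input, 2.46 and 5.49 with LacZ probes, 2.18 and 6.25 with ODD, and 1.98 and 6.13 with EVEN, with replicate 2 higher in every group, as for Rarb and Crabp2. The coactivator Ncoa3 (0.61) and the retinol transporter Stra6 (0.57) were higher, and the partner receptor Rxrg (-0.50) was lower. In the interaction model 2 of the 17 passed, both lower, beside 4.75% of all genes called lower, and Fabp5 was 1 of them (-0.94, SE 0.192, adjusted p = 0.0271 with edgeR).

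The rest of the hedgehog pathway was a list of 21 genes, of which 19 were tested. The most abundant in Input were Spop, an adaptor for Gli turnover (44.7 ± 3.36 FPKM, SD, n = 2), the ligand Shh (43.5 ± 14.8), the transducer Smo (20.0 ± 5.43) and the kinase Grk2 (19.3 ± 1.70). None of the 19 passed in any capture against Input or LacZ with edgeR, DESeq2 or limma. Over all pull-downs against Input 1 of them, Shh, had an unadjusted p under 0.05 (-0.71, SE 0.253, adjusted p = 0.141 with edgeR), and the median was -0.19. Shh had 33 and 54.0 FPKM in Input, 23.3 and 33.2 with LacZ probes, 23.3 and 32.2 with ODD, and 20.2 and 28.8 with EVEN, so each capture was below its own Input. With the replicate as a block 4 of the 19 passed as lower, beside 13.1% of all genes: Shh (-0.69, adjusted p = 0.00156 with edgeR), the coreceptor Gas1 (-0.41, 0.0414), Disp1, which releases the ligand (-0.40, 0.0366), and Smo (-0.34, 0.0373). The block fit called Shh in LacZ as well (-0.65, adjusted p = 0.00781 with edgeR).

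Between the experiments 3 of the 19 were higher and 7 lower in replicate 2, beside 15% and 12.4% of all genes, with a median of -0.19. The genes that were higher were Scube2 (1.33, on 2 to 18 counts per library), which helps release the ligand, Shh (0.54, SE 0.081, adjusted p = 0.00328 with edgeR) and Gli3 (0.34), a Gli factor that acts mainly as a repressor. Those that were lower were Gas1 (-0.77, SE 0.113, adjusted p = 0.00304 with edgeR), Lrp2 (-0.71), Smo (-0.67, SE 0.089, adjusted p = 0.002 with edgeR), Evc2 (-0.51), Evc (-0.44), Gpr161 (-0.40) and Sufu (-0.29). Lrp2 and Gas1 help cells receive the ligand, Evc and Evc2 act with Smo at the cilium, and Sufu and Gpr161 restrain the pathway. The ligand was thus higher in the experiment in which Ptch1, Smo and Gas1 were lower. DESeq2 called Shh and 6 of these 7 lower genes, without Sufu, and limma called Shh, Smo, Gas1 and Gpr161. In the interaction model Lrp2 passed (1.17, SE 0.225, adjusted p = 0.0226 with edgeR), with the sign opposite to that of Crabp1 and Crabp2.

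**Figure D4:**
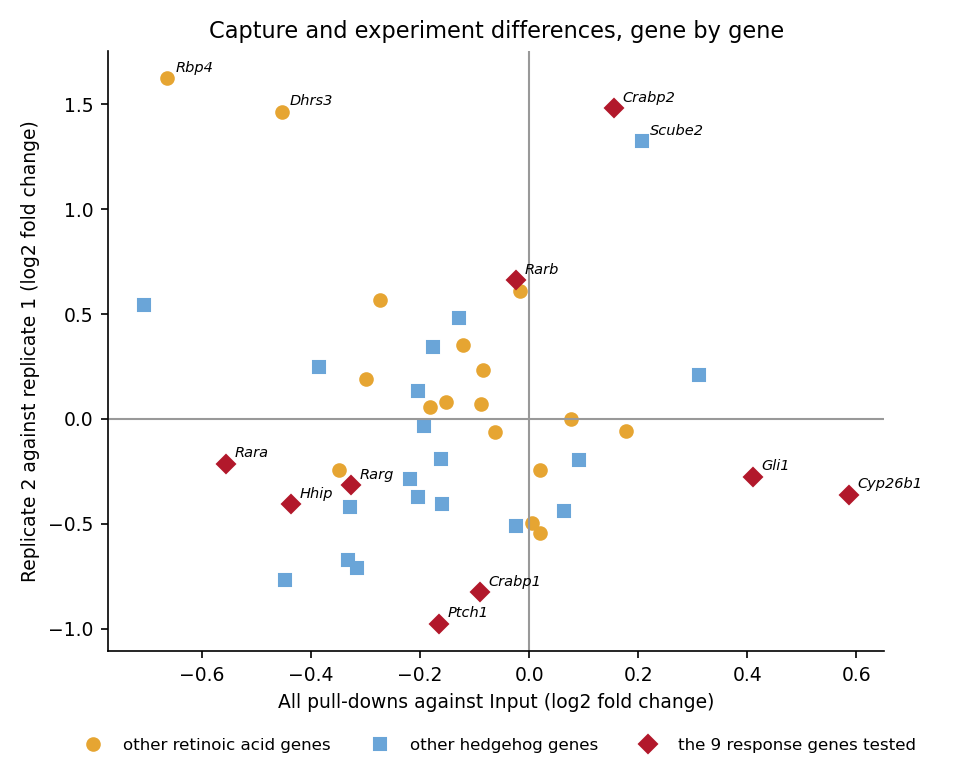
Log2 fold change of all pull-downs against Input (horizontal) and of replicate 2 against replicate 1 (vertical) for the 9 tested response genes (diamonds), 17 other retinoic acid genes (circles) and 19 other hedgehog genes (squares). Rbp4, Crabp2, Dhrs3 and Scube2 lie at the top (1.63, 1.48, 1.47 and 1.33 vertically), and Ptch1 is lowest at -0.98.

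Genes whose levels followed those of the members most closely were sought over the 8 libraries by Pearson correlation of log2(CPM + 1). The libraries fall into 2 experiments and into Input and captures, and many genes share that pattern, so the values are descriptive. Rara was most like Ppard (r = 0.997), Ptch1 most like Phldb1 (0.997), Crabp1 most like Ppig (0.995) and Rarb most like Ptpn5 (0.992). Crabp2 was most like Crem (0.987), Hhip most like Ptprt (0.986), Cyp26b1 most like Mrpl28 (0.982), Rarg most like Tpst2 (0.972) and Gli1 most like Gemin2 (0.962). Correlations above 0.95 were reached by 318 genes for Ptch1 and 225 for Rarb, but by 1 for Gli1 and 2 for Cyp26b1.

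Besides Top2b, 1 other annotated gene within the spans of the members had at least 10 counts. A930032L01Rik, annotated in the class TEC (not yet assigned), lies in an intron of Ptch1 on the same strand, on chromosome 13 from 63567098 to 63568054. It had 23 and 17 counts in Input, 18 and 15 with LacZ probes, 25 and 11 with ODD, and 29 and 12 with EVEN. It differed from Input by 0.93 over all pull-downs (SE 0.463, adjusted p = 0.284 with edgeR) and by -0.77 between replicates (SE 0.256, adjusted p = 0.0617 with edgeR), neither of which passed.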

How the data were processed

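Libraries came from ribosomal RNA-depleted total RNA (a stranded kit), as the labels' protocols state. The authors deposited whole-number counts per Ensembl gene and FPKM values for the 8 libraries. Each deposited FPKM was the count divided by gene length and library total (largest relative difference 6.66e-14), so both tables hold 1 measurement. The submitters' processing notes name cutadapt 3.2, Bowtie2 2.4.2, Picard, HTSeq 0.13.5 and GRCm38; the annotation release and the strand setting of counting are not given in the sources. Of 55471 identifiers 55230 were in GENCODE M21, and the deposited length equalled the merged exons for 99.1% of them, so M21 gave names and coordinates. Counts are reads without molecular identifiers.

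Counts were tested with edgeR 4.0.16 (R 4.3.3): quasi-likelihood test, TMM factors (0.965 to 1.03), default filter by group (16524 genes), group as the only term, 2-sided, with Benjamini-Hochberg adjustment over all genes tested and a threshold of 0.05. The difference between experiments was tested in a fit of group and replicate. The scripts were tested on simulated counts. CPM used TMM-scaled totals. Alternatives were the replicate block, the block with a GC trend removed (spline of 5 degrees of freedom), DESeq2 1.42.0, RLE factors, total library size, no filter beyond 1 count, 50 counts in 2 libraries, limma 3.58.1 on log2(FPKM + 1), a fit of only the groups compared, and leaving out each library.

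The labels give the replicate as a batch and the design text gives 2 independent experiments, so the numbers pair libraries; deviations of same-numbered libraries from group means correlated with r of 0.517 to 0.719 over the 6 pairs of groups. Replicates of a group differed beyond sampling noise (chi-square per degree of freedom 31.5 to 61.5).

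The members, lists and alternatives were chosen with earlier results of these data known. Named genes were all 10 members, for each tested member the gene of highest correlation (symbols starting with Gm or ending with Rik left out), of each other pathway list those that passed in any comparison and the 4 highest in Input, and genes in member loci with at least 10 counts; some items that this rule names are not reported here.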

Additional observations from a re-analysis of the deposited data

Results flagged for a closer look

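The difference between pull-downs and Input was not the same in the 2 experiments for 3 of the 9 genes tested, by the interaction of capture and replicate in edgeR (6.86% of all genes called). For Cyp26b1 the log2 difference in replicate 2 minus that in replicate 1 was -2.143 (adjusted p = 0.0273 with edgeR), and the 3 captures were 2.53 to 4.24 times Input in replicate 1. For Crabp1 it was -1.541 (adjusted p = 0.00669 with edgeR). For Crabp2 it was -1.670 (adjusted p = 0.00696 with edgeR). In each of these genes the 3 captures of an experiment, LacZ included, lay on the same side of their Input in replicate 1. Each experiment has 1 Input library, so this difference rests on 2 Input libraries.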

How the results depend on the processing

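Counts of members called against Input moved from 0 under few settings. With the replicate block, 1 was called in each of LacZ, ODD, EVEN and all pull-downs (Rara each time). Of all genes, 19.7%, 19.2%, 19.3% and 29.2% were called there. With the block and the GC trend removed, 2 were called in LacZ and 3 in each of ODD, EVEN and all pull-downs, where 27.5%, 27.7%, 26.1% and 38% of all genes were called; over all pull-downs the median of all genes was -0.14 instead of -0.02. In that fit over all pull-downs Rara was at -0.44, Gli1 at 0.52 and Hhip at -0.90. DESeq2 and no filter beyond 1 count called 1 each over all pull-downs, beside 14.3% and 10.3% of all genes. The cause of these shifts was not tested. The block changed no call of a member other than Rara. Against LacZ and between ODD and EVEN, 0 members were called under every alternative run. Between replicates, the count was 3 or 4 under the other alternatives and 3 to 6 when leaving out 1 library.

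Small differences changed sign. Against Input, Rarb was 0.030 with the filter of 50 counts and 0.005 with limma. Against LacZ, Rarb was -0.012 with the block and the GC trend removed, -0.013 with DESeq2, -0.014 with RLE factors, -0.043 with total library size, -0.008 with the filter of 50 counts, -0.007 with only the groups compared, -0.036 with limma and -0.006 with the replicate block on pull-downs only. Crabp2 was -0.001 with total library size and -0.012 with limma. Ptch1 was -0.018 with the block and the GC trend removed, -0.022 with total library size, -0.041 with limma and -0.009 with the block on pull-downs only.

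Leaving out 1 library at a time gave, against Input, -0.372 to 0.431 for Rarb, 0.108 to 1.285 for Cyp26b1, -0.382 to 0.090 for Crabp1, -0.648 to 2.090 for Crabp2, -0.662 to 0.600 for Ptch1 and -0.814 to 0.078 for Hhip. Against LacZ it gave -0.159 to 0.009 for Rara, -0.249 to 0.328 for Rarb, 0.165 to 0.445 for Rarg, 0.018 to 0.584 for Gli1, -0.055 to 0.578 for Cyp26b1, -0.497 to 0.480 for Crabp1, -0.356 to 0.620 for Crabp2 and -0.322 to 0.477 for Ptch1. A group left with 1 library was assumed to vary like the others. These ranges are not limits of detection. With 2 libraries a group, leaving 1 out leaves that group with a single experiment, so the ranges also hold the difference between experiments. Small changes were not detectable, and Cyp26a1, with 18 counts in all, could not be compared. The complementary run of Rarg was 10 nt instead of 11 when only its longest transcript was searched.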
